A study of Mus musculus with 16 samples.

Results

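The 10 genes described here mark the endothelial cells that line the liver sinusoids and were followed in liver tissue. They are Cdh5, Pecam1, Kdr, Tek, Stab1, Stab2, Lyve1, Fcgr2b, Clec4g and Oit3. They were taken by name as the rows of the deposited table whose gene identifiers carry these symbols, and all 10 were found among 13006 genes. All 10 also passed the filter on low counts that left 12918 genes for testing.

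Liver sinusoidal endothelial cells form a fenestrated wall without a continuous basement membrane between blood and hepatocytes. They clear waste macromolecules and immune complexes from blood through scavenger, lectin and Fc receptors, and they depend on vascular endothelial growth factor (VEGF) signals from hepatocytes. Junction proteins and growth factor receptors are shared with the endothelium of other vessels, whereas the scavenger and lectin receptors are typical of the sinusoid.

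Poly(A) RNA was sequenced from liver of mice with the genotype Humanized PXR-CAR-CYP3A4/3A7, in which human xenobiotic receptor and drug-metabolising enzyme genes are carried by every group, controls included. Each of the 4 groups had 4 libraries. The CV group received propylene glycol, the vehicle. The EV group received ethinylestradiol (EE), a synthetic estrogen used to produce cholestasis in rodents, injected under the skin at 10 mg/kg for 7 days. The CM group received MI763F, a ligand known by this code name, by gavage at 2.5 mg/kg for 6 days beginning on day 2, and the EM group received both agents. The labels give neither sex, age nor strain, do not say whether CV and EV mice were gavaged with vehicle, and do not tie each library to its own animal, so that p-values cover only differences between these libraries, which may be technical. Library totals ran from 14115384 to 21473227 estimated counts, and levels are given as CPM, the count per 1000000 of a library's scaled total. The scaling factors fell into separate ranges, 0.833 to 0.91 without EE and 1.1 to 1.23 with EE, so that scaling by totals alone raised the median log2 fold change of all genes by 0.49 in EV against CV. In whole tissue, fewer cells of a type and less RNA per cell cannot be told apart.

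The sequence just upstream of a gene start is shown for the 4 genes where a searched motif fell outside the RefSeq gene, because the members moved together within groups and because EE acts through estrogen receptors that bind DNA. RefSeq windows (build GRCm38.p6) were matched for 6 of the 10 genes: Stab1, Stab2, Clec4g, Kdr, Tek and Fcgr2b. The sequences read 5′ to 3′ on the gene's strand, here the minus strand in each case. Capitals mark AGGAAG or CGGAAG, core motifs of the ETS family of endothelial transcription factors, in the windows of Stab1 and Clec4g, and AGGTCA, the half-site of an estrogen response element, in those of Stab2 and Fcgr2b; either strand was searched, so a reverse complement may be capitalised.
Stab1 (chr14:31168652-31168891): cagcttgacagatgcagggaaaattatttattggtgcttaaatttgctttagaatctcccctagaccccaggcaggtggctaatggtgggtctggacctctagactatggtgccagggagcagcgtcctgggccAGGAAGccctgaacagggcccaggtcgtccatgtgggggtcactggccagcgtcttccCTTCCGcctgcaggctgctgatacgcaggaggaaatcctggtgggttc
Stab2 (chr10:87008039-87008192): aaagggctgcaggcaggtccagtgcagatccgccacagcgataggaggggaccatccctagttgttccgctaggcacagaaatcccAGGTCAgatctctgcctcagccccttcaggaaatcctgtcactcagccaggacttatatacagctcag
Clec4g (chr8:3720696-3720901): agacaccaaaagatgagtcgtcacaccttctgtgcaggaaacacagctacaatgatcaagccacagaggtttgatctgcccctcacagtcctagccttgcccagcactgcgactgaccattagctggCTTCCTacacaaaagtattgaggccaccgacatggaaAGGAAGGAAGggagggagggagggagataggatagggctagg
Fcgr2b (chr1:170976072-170976321): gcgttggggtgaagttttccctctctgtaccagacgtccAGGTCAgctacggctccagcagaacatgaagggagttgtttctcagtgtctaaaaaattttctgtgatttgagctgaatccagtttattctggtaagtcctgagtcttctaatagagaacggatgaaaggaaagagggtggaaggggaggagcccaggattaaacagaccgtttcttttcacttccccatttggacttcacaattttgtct

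In the windows of 250 bases, an ETS core was found in 3 of the 6 genes, with 3 matches in Clec4g (the last pair overlapping), 2 in Stab1 and 1 in Stab2 outside the stretch printed. The windows reach into the RefSeq gene for 5 of the 6. Bases outside the gene numbered 0 for Kdr, 47 for Tek, 154 for Stab2, 206 for Clec4g, 240 for Stab1 and 250 for Fcgr2b. The counts given here cover whole windows, and the match in Stab2 lies inside the gene. Of 32851 windows of the same length cut in the same way at gene starts, 39.2% held one of the ETS cores, AGGAAG being in 29.5% and CGGAAG in 13.6%. AGGTCA was in 2 of the 6 windows and in 14.02% of all windows. The GATA motifs AGATAA and TGATAA were in 0 of the 6, against 16.6% of all windows with either, and the full palindromic estrogen response element was in 0 of the 6, against 0.0639% of all. These matches describe letters in a short window and say nothing about binding.

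EE raised 6 of the 10 genes in mice without MI763F. Cdh5 and Lyve1 rose most, by 3.57-fold and 3.14-fold, followed by Pecam1 (2.24-fold), Stab2 (2.05-fold), Kdr (1.76-fold) and Stab1 (1.37-fold). Fcgr2b, Tek, Clec4g and Oit3 did not pass the threshold of an adjusted p under 0.05, and no member fell. Among all genes tested, 25.5% were called higher in the same comparison. The members' median log2 fold change was 0.78, beside 0.00412 over all genes. In mice given MI763F, EE raised 3 of the 10, namely Cdh5, Lyve1 and Stab2, where 19.4% of all genes were called higher. The members' median log2 fold change was then 0.41, beside 0.0012 over all genes. These comparisons share no library.

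**Figure D1:**
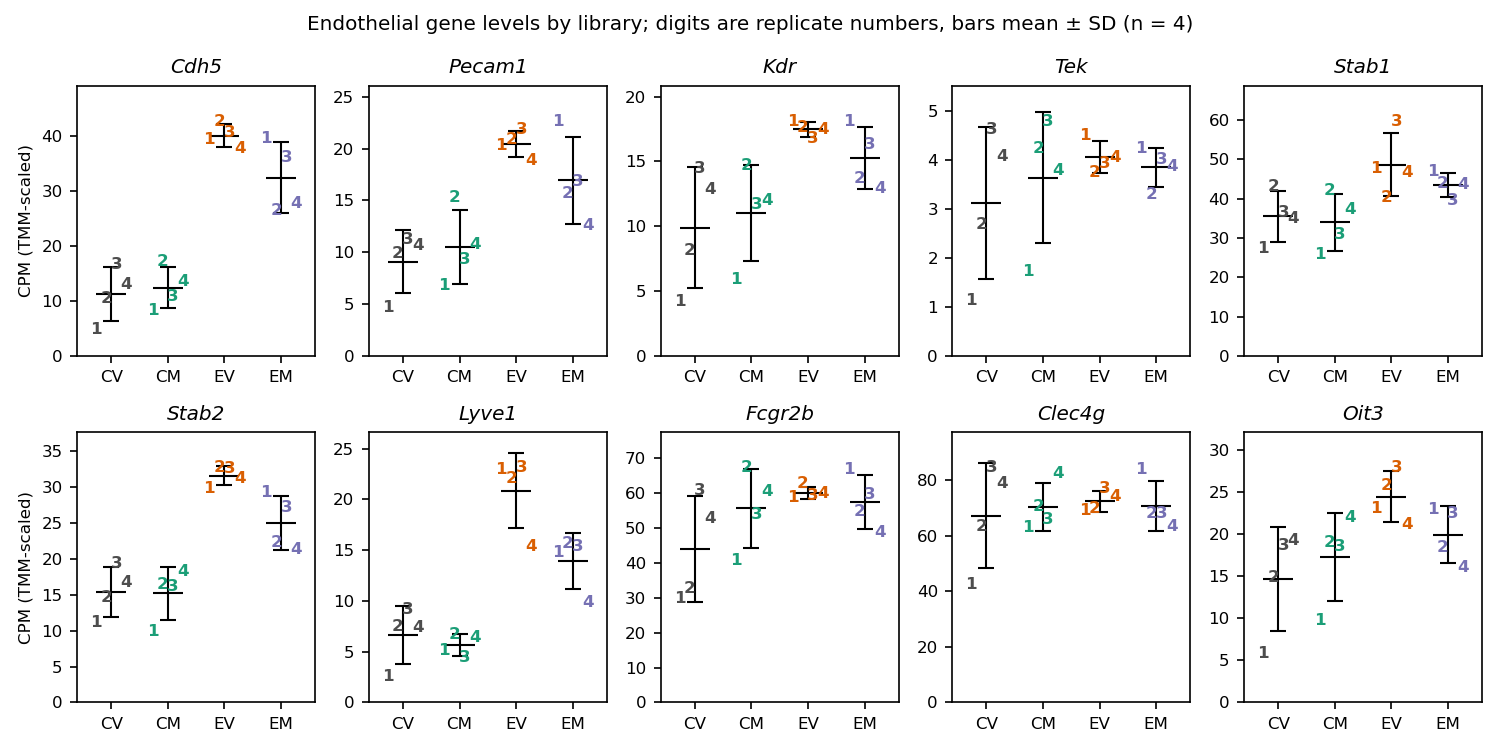
Level of each gene in CPM (scaled by trimmed mean of M values) in the 16 libraries; digits are replicate numbers and bars are the mean ± SD of 4 libraries. For Cdh5, Stab2 and Lyve1 all 8 libraries with EE (EV, EM) lie above all 8 without (CV, CM). For Pecam1, Kdr, Tek, Stab1, Fcgr2b, Clec4g and Oit3 these ranges overlap. Replicate 1 is lowest for 10 of 10 genes in CV and 9 of 10 in CM.

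Among the junction genes, Cdh5 encodes VE-cadherin, the adhesion protein that holds endothelial cells together. Its level in the 4 CV libraries was 4.84, 10.5, 16.6 and 12.9 CPM, and in the CM libraries 8.27, 17.1, 10.8 and 13.5 CPM. With EE it was 39.3, 42.6, 40.5 and 37.6 CPM in EV and 39.6, 26.4, 36.0 and 27.6 CPM in EM. Every EE library thus exceeded every library without EE, with a gap between 17.1 and 26.4 CPM. The log2 fold change was 1.83 ± 0.29 (SE) in EV against CV (edgeR quasi-likelihood adjusted p = 8.79e-05) and 1.38 ± 0.28 in EM against CM (edgeR adjusted p = 0.00142).

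Pecam1 encodes PECAM-1 (CD31), a platelet and endothelial adhesion molecule of cell junctions. It stood at 4.63, 9.86, 11.3 and 10.7 CPM in CV and at 20.3, 20.9, 21.9 and 18.8 CPM in EV, without overlap, a separation found for 24.6% of all genes. With MI763F it stood at 6.76, 15.3, 9.34 and 10.7 CPM in CM and at 22.6, 15.7, 16.8 and 12.6 CPM in EM. There the groups overlapped, since CM replicate 2 was higher than EM replicate 4. EE raised Pecam1 by 1.17 ± 0.27 on the log2 scale in EV against CV (edgeR adjusted p = 0.00192), and the difference of 0.68 ± 0.26 in EM against CM missed the threshold (edgeR adjusted p = 0.053). The second value crossed the threshold without CV replicate 1, CM replicate 2 or EM replicate 4, the lowest adjusted p being 0.0132.

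Kdr encodes VEGF receptor 2, the main signalling receptor for VEGF-A. Its CPM was 4.20, 8.10, 14.4 and 12.9 in CV and 18.1, 17.6, 16.7 and 17.5 in EV. The EV libraries spanned a far narrower range than the CV libraries and lay wholly above them, a separation found for 24.6% of all genes. With MI763F the values were 5.86, 14.7, 11.7 and 11.99 CPM without EE and 18.1, 13.7, 16.3 and 12.9 CPM with it, which overlap. The change was 0.82 ± 0.31 in EV against CV (edgeR adjusted p = 0.037) and 0.46 ± 0.30 in EM against CM (edgeR adjusted p = 0.253). Its call in EV against CV was lost without CV replicate 1, CV replicate 2 or any 1 of the EV libraries, with adjusted p up to 0.0917.

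Tek encodes TIE2, the receptor for angiopoietins that keeps the endothelium quiescent. Its CPM was 1.14, 2.67, 4.61 and 4.07 in CV, 1.73, 4.23, 4.78 and 3.79 in CM, 4.50, 3.74, 3.93 and 4.05 in EV, and 4.22, 3.29, 4.00 and 3.87 in EM. The groups overlapped throughout. The log2 difference was 0.37 ± 0.34 in EV against CV, a fold of 1.30 with a 95% interval from 0.773 to 2.17, and 0.08 ± 0.34 in EM against CM, a fold of 1.06 with an interval from 0.633 to 1.77. A change as large as the 1.76-fold rise of Kdr is therefore inside the first interval.

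The scavenger receptors Stab1 and Stab2, which encode stabilin-1 and stabilin-2, take up modified proteins and, for stabilin-2, hyaluronan. Stab2 was at 11.1, 14.6, 19.3 and 16.7 CPM in CV and at 29.9, 32.7, 32.6 and 31.3 CPM in EV. In mice given MI763F it was at 9.84, 16.5, 16.2 and 18.3 CPM without EE and at 29.2, 22.3, 27.2 and 21.3 CPM with EE. No EE library fell to the level of a library without EE. It rose by 1.03 ± 0.18 in EV against CV (edgeR adjusted p = 0.000256) and by 0.72 ± 0.18 in EM against CM (edgeR adjusted p = 0.00613), both log2.

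Stab1 moved less. It was at 27.3, 43.2, 36.6 and 35.0 CPM in CV and at 47.8, 40.4, 59.7 and 46.7 CPM in EV, so that EV replicate 2 lay below CV replicate 2. The CM libraries held 25.7, 42.0, 30.9 and 37.3 CPM and the EM libraries 47.0, 43.9, 39.7 and 43.6 CPM, again with 1 EM library below the highest CM library. The log2 fold change was 0.45 ± 0.16 (edgeR adjusted p = 0.0276) and 0.36 ± 0.16 (edgeR adjusted p = 0.0928), respectively. Leaving out CV replicate 1, CV replicate 4 or EV replicate 3 ended the first call, with adjusted p up to 0.0993, and leaving out CV replicate 1 together with CM replicate 1 gave 0.0523.

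Lyve1 encodes a hyaluronan receptor first described in lymphatic vessels and also carried by sinusoidal endothelium. It stood at 2.56, 7.49, 9.14 and 7.37 CPM in CV, and at 23.0, 22.0, 23.1 and 15.3 CPM in EV. The CM libraries were at 5.11, 6.73, 4.48 and 6.42 CPM and the EM libraries at 14.8, 15.7, 15.4 and 9.83 CPM. Replicate 4 was the low library in both EE groups, and still above every library without EE. The rise was 1.65 ± 0.29 in EV against CV (edgeR adjusted p = 0.000216) and 1.29 ± 0.29 in EM against CM (edgeR adjusted p = 0.00249), log2. The other lymphatic markers measured, Prox1 (also a hepatocyte gene), Reln (also a stellate cell gene) and Ccl21a, gave 0 calls among 3 in either comparison.

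Fcgr2b encodes the inhibitory Fc receptor by which sinusoidal endothelium clears small immune complexes. It was at 29.9, 32.6, 60.8 and 52.8 CPM in CV, 40.8, 67.3, 53.9 and 60.5 CPM in CM, 58.7, 62.7, 59.3 and 59.9 CPM in EV, and 66.9, 54.7, 59.5 and 48.8 CPM in EM. All 4 groups overlapped, and the EV libraries lay within the range of the CM libraries. The log2 difference was 0.45 ± 0.20 in EV against CV (edgeR adjusted p = 0.076) and 0.05 ± 0.20 in EM against CM. Of its 3495 transcript words of 50 bases, 397 also occur in other genes, 166 of them in Fcgr3, so its reads are less certain than those of the other 9 genes, which share 0.

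Clec4g, a C-type lectin of sinusoidal endothelium also called LSECtin, had the highest mean level of the 10 in every group. Its CPM was 42.4, 63.1, 84.4 and 78.9 in CV, 62.7, 70.6, 65.8 and 82.2 in CM, 68.9, 69.6, 76.9 and 73.96 in EV, and 83.8, 67.9, 67.8 and 63.1 in EM. The EV libraries lay inside the range of the CV libraries. The fold was 1.08 with a 95% interval from 0.837 to 1.38 in EV against CV, and 1.00 with an interval from 0.781 to 1.29 in EM against CM. The first interval leaves out the 3.57-fold change of Cdh5 and the 2.05-fold change of Stab2 in the same comparison.

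Oit3, a secreted protein gene of unsettled function that is expressed in sinusoidal endothelium, was just outside the threshold. Its CPM was 5.84, 14.8, 18.6 and 19.3 in CV and 23.1, 25.8, 27.9 and 21.1 in EV, without overlap, a separation found for 24.6% of all genes. In CM it was 9.69, 19.04, 18.5 and 21.9 and in EM 22.9, 18.4, 22.5 and 16.01, which overlap. The difference was 0.74 ± 0.30 (edgeR adjusted p = 0.0519) and 0.20 ± 0.30 (edgeR adjusted p = 0.629), log2. The first value passed in DESeq2 (adjusted p = 0.0296) and without CV replicate 3, CV replicate 4 or CM replicate 1.

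Across both pairs of groups, Cdh5, Stab2 and Lyve1 had all 8 EE libraries above all 8 others, a pattern seen in 13.4% of all genes. With library totals in place of composition factors, Pecam1, Stab1 and Kdr joined them, making 6 members, where 31.9% of all genes had this pattern. On that scale 10 of 10 members were called higher in EV against CV and 6 of 10 in EM against CM, beside 54.6% and 45.6% of all genes.

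**Figure D2:**
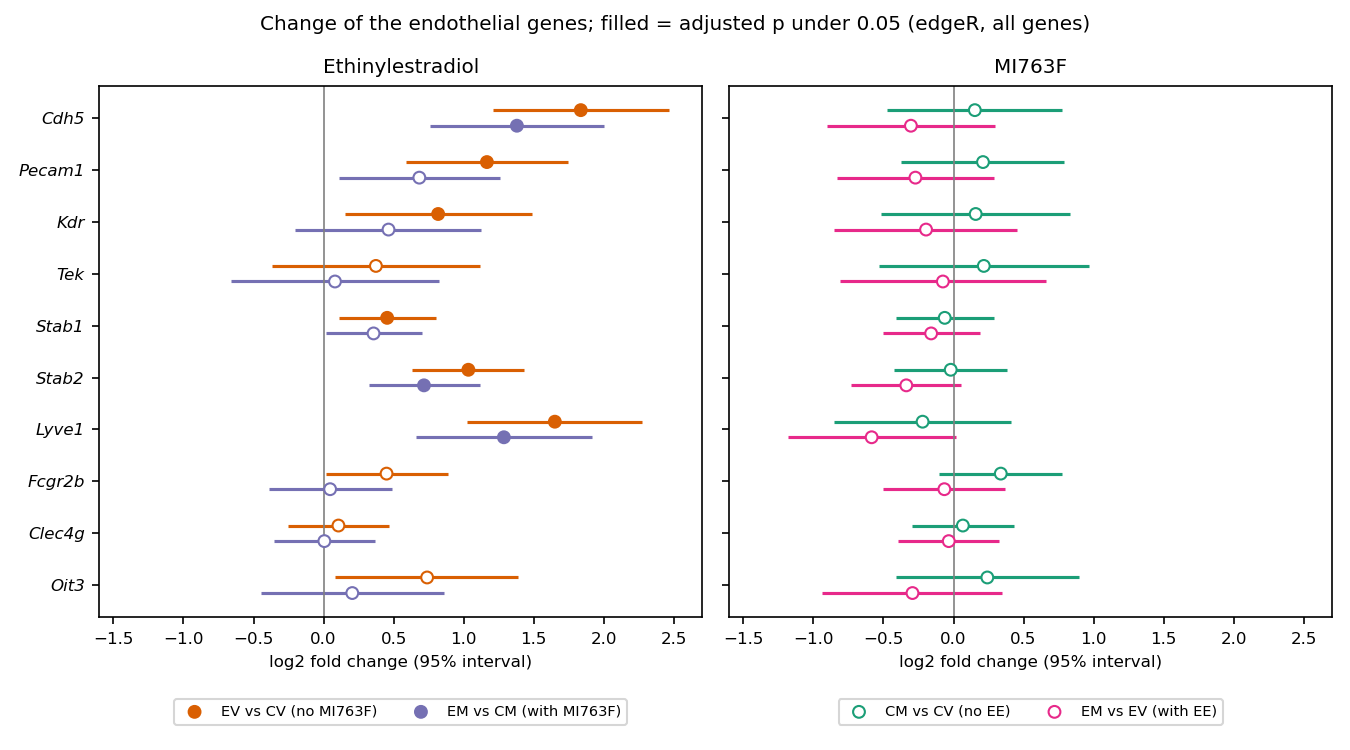
Log2 fold change with 95% interval of each gene for ethinylestradiol (left) and for MI763F (right), each without and with the other agent; filled points have an adjusted p under 0.05 over 12918 genes. The filled points, 6 for EV against CV and 3 for EM against CM, all lie to the right of 0 in the left panel, and the right panel has none.

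With MI763F, none of the 10 genes passed the threshold, either without or with EE. In CM against CV, 0 of 10 were called by edgeR or by DESeq2, where 0.0929% of all genes were called by edgeR. At an unadjusted p under 0.05 there were also 0 of 10, against 10.5% of all genes. Fcgr2b had the lowest p, 0.115, with a fold of 1.26 and a 95% interval from 0.932 to 1.71. For Cdh5 the interval ran from 0.72 to 1.71, and for Tek, the least precise, from 0.691 to 1.95.

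In EM against EV, 0 of 10 were called by either tool, where 1.69% of all genes were called by edgeR, and 0 of 10 had an unadjusted p under 0.05, against 12.7% of all genes. All 10 estimates were negative, from -0.03 for Clec4g to -0.58 ± 0.28 for Lyve1, beside a median of -0.00237 over all genes. The members varied together within groups, so their shared sign is not 10 separate results. Lyve1 had a fold of 0.667 with an interval from 0.44 to 1.01 (unadjusted p = 0.0514, edgeR adjusted p = 0.396). Stab2 was the one member whose EM libraries, 21.3 to 29.2 CPM, all lay below its EV libraries, 29.9 to 32.7 CPM, and its fold was 0.792 with an interval from 0.603 to 1.04 (edgeR adjusted p = 0.469). Groups that do not overlap in this direction were found for 3.98% of all genes.

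The test of whether the EE effect differed with MI763F called 0 of 10 members by edgeR or DESeq2, where edgeR called 0.132% of all genes. No member had an unadjusted p under 0.05, against 13.6% of all genes, and the lowest was 0.176 for Fcgr2b. All 10 differences were negative, from -0.10 to -0.53, and this comparison shares its libraries with the others. The median over all genes was 0.00938. Since the members varied together within groups, the shared sign is again not 10 separate results. Pecam1, called in EV against CV and not in EM against CM, had a difference of -0.48 ± 0.37 on the log2 scale, so the effects were not shown to differ.

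The 10 genes did not keep a fixed ratio to each other. Cdh5 over Pecam1, in estimated counts, was 1.05, 1.06, 1.47 and 1.21 in CV and 1.22, 1.12, 1.16 and 1.26 in CM, and 1.94, 2.04, 1.85 and 2.00 in EV and 1.75, 1.69, 2.15 and 2.19 in EM. All 8 EE libraries therefore held more Cdh5 for each Pecam1 count than any of the other 8. Relative to Pecam1, Cdh5 was higher by 0.71 ± 0.32 log2 units in EV against CV (edgeR adjusted p = 0.0411) and by 0.71 ± 0.32 in EM against CM (edgeR adjusted p = 0.0678). The edgeR unadjusted p was 0.0315 and 0.0318. Only the adjustment, which depends on all genes tested, put them on different sides of the threshold. The ratio of Cdh5 to Pecam1 does not depend on how libraries are scaled.

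With the geometric mean of Cdh5 and Pecam1 set equal in all libraries, 5 of the other 8 members were lower in EV than in CV, and 4 of 8 were lower in EM than in CM. Clec4g went from ratios of 8.95, 6.21, 6.18 and 6.72 in CV to 2.44, 2.34, 2.58 and 2.78 in EV, a change of -1.47 ± 0.34 (edgeR adjusted p = 0.000125). Stab1 (-1.20 ± 0.34), Fcgr2b (-1.13 ± 0.34), Tek (-1.07 ± 0.38) and Oit3 (-0.74 ± 0.33) were the others called in that comparison. Stab2 (-0.58 ± 0.34) and Kdr (-0.65 ± 0.33) missed the threshold, and Lyve1 was at 0.17 ± 0.34. The Kdr ratios still did not overlap, at 0.797 to 1.095 in CV and 0.562 to 0.658 in EV. Those of Stab2 were 1.413 to 2.346 in CV and 1.059 to 1.175 in EV, also without overlap. The share of all genes so separated on this scale is not given here. Missing the threshold does not show that Stab2 and Kdr kept pace with the junction genes. In EM against CM the genes called were Clec4g, Fcgr2b, Tek and Oit3. There the Kdr ratios were 0.784 to 1.16 in CM and 0.605 to 0.691 in EM, without overlap, while those of Stab2 overlapped. The call of Oit3 was lost without CV replicate 2 or 4, CM replicate 3, EM replicate 3 or any 1 EV library in the first comparison (adjusted p up to 0.0889), and without CM replicate 3 or 4 or EM replicate 1 or 3 in the second, where that of Tek was lost without CM replicate 3 or EM replicate 1, 2 or 3 (adjusted p up to 0.152). Since 80.9% and 66% of all genes were lower on this scale, the counts describe how the members stand against those 2 junction genes, whose own rise the scale takes out. With so many genes called, the adjustment over all genes changed p little, so the adjusted threshold was close to an unadjusted one. For Oit3 in EV against CV, the edgeR p went from 0.0305 unadjusted to 0.0369 adjusted. Its ratios were 1.23 to 1.64 in CV and 0.794 to 0.937 in EV, without overlap.

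These counts changed with the reference genes. Against Pecam1 alone, 3 and 0 of the 8 were lower, and against Cdh5 alone, 7 and 6. Against 20 pan-endothelial genes, Lyve1 was higher and Clec4g lower in EV against CV, and Lyve1 alone was called, higher, in EM against CM. Against 5 other sinusoidal genes, a reference added after the data were seen, Lyve1 was the 1 gene called, higher in both. The shares of all genes called against these references are not given here, so these counts do not set the members apart from other genes.

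**Figure D3:**
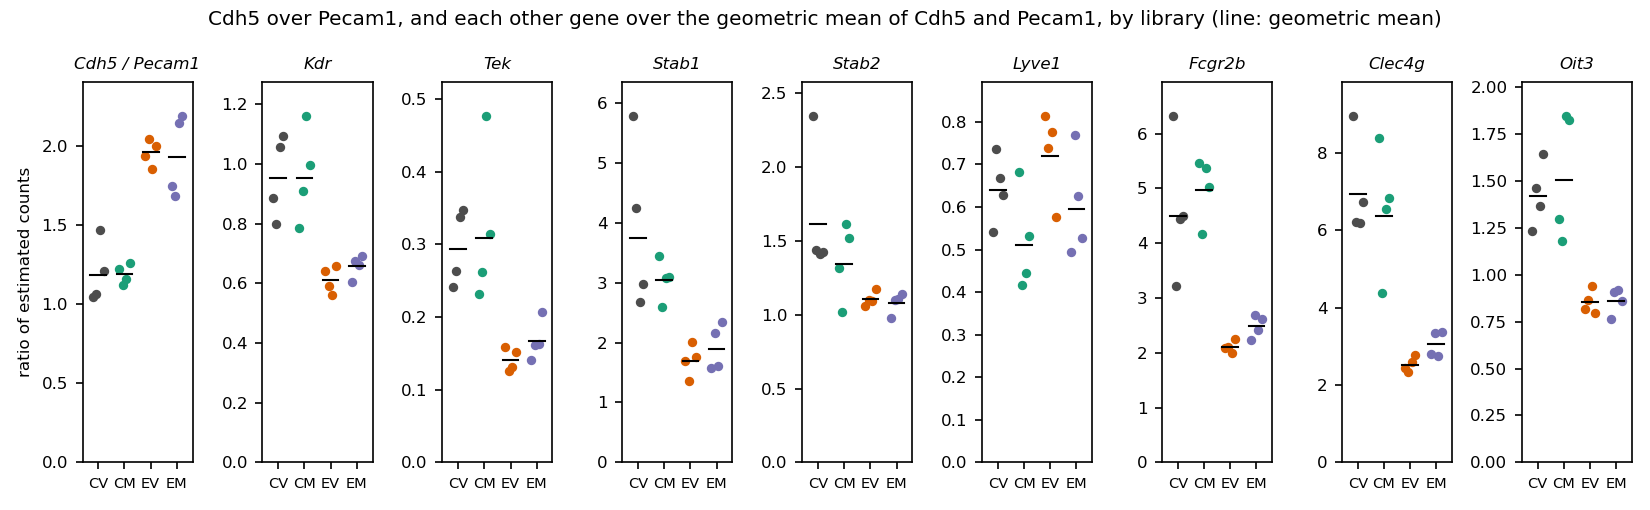
Ratio of Cdh5 to Pecam1 (left panel) and of each other gene to the geometric mean of Cdh5 and Pecam1, in estimated counts, for each library; the line is the geometric mean of 4 libraries and each axis starts at 0. Cdh5 over Pecam1 is 1.05 to 1.47 without EE and 1.69 to 2.19 with EE, and Clec4g falls from 4.37 to 8.95 without EE to 2.34 to 3.38 with EE.

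The deposited values are already relative to gene length, since the smallest value of rarely detected genes fell in proportion to their length, so that CPM of different genes can be set side by side as levels. In CV the mean was 67.2 ± 18.9 CPM (SD, n = 4) for Clec4g, 44.0 ± 15.1 for Fcgr2b and 35.5 ± 6.5 for Stab1. Below these came Stab2 (15.4 ± 3.47), Oit3 (14.6 ± 6.19), Cdh5 (11.2 ± 4.92), Kdr (9.89 ± 4.65), Pecam1 (9.11 ± 3.04), Lyve1 (6.64 ± 2.84) and Tek (3.12 ± 1.55). The libraries of Stab1 were separate from those of Stab2, and every other pair of neighbours in this order overlapped. In EV, Clec4g (72.3 ± 3.77), Fcgr2b (60.2 ± 1.75) and Stab1 (48.6 ± 8.07) again came first, followed by Cdh5 (40.02 ± 2.12), Stab2 (31.6 ± 1.34), Oit3 (24.5 ± 2.99), Lyve1 (20.9 ± 3.72), Pecam1 (20.4 ± 1.28), Kdr (17.5 ± 0.57) and Tek (4.05 ± 0.32). There Fcgr2b overlapped Stab1, Stab1 overlapped Cdh5, and Lyve1 overlapped both Oit3 and Pecam1, while the other neighbours were separate. Tek was the lowest and Clec4g the highest by mean in all 4 groups.

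The libraries of a group differed together in these genes. CV replicate 1 was the lowest of its group for 10 of 10 members, and CM replicate 1 for 9 of 10. EM replicate 1 was the highest of its group for 9 of 10 and EM replicate 4 the lowest for 7 of 10. The members' coefficients of variation had a median of 38.3% in CV, 27.4% in CM, 5.77% in EV and 15.4% in EM, while the medians over all genes were 15.5%, 15.6%, 10.7% and 12.8%. The higher values without EE rested on 1 library in each group. Without CV replicate 1 the members' median was 14.3% (all genes 13.7%), and without CM replicate 1 it was 12.4% (all genes 14.6%). In EV it was 4.61% to 6.42% whichever library was left out, beside 9.48% to 10.4% for all genes. Without CV replicate 1 and CM replicate 1, 6 of 10 were called in EV against CV and 4 of 10 in EM against CM. The shares of all genes called in that fit are not given here.

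With group means removed, the 45 pairs of members had a median Pearson r of 0.83 over the 16 libraries, from 0.42 for Stab1 with Fcgr2b to 0.96 for Kdr with Tek. Points in these correlations share a library, its depth and its tissue piece. Kdr (r = 0.97) and Cdh5 (r = 0.97) followed the mean of the other 9 most closely, and Stab1 (r = 0.64) least. Over all 11199 genes of comparable abundance (mean log2 CPM of 1 or more), r with the members' mean had a median of 0.00584 and a 95th percentile of 0.62. Without CV replicate 1 and CM replicate 1, the median over pairs was 0.59, the lowest -0.36 and the highest 0.97. The 8 libraries without EE alone gave a median of 0.87, and the 8 with EE alone 0.62.

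**Figure D4:**
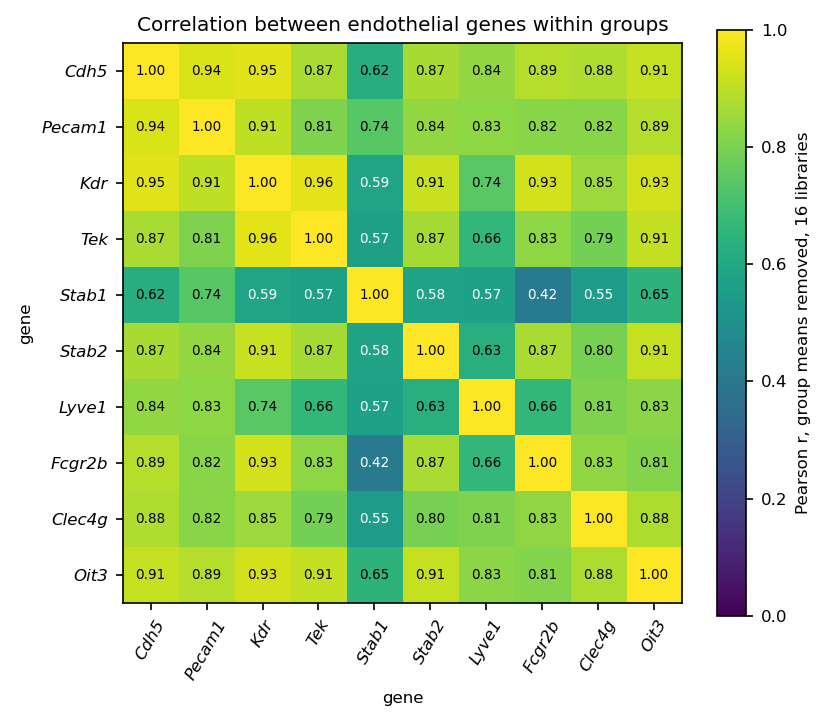
Pearson correlation between the 10 genes over 16 libraries after removal of each group's mean, on a scale from 0 to 1. Stab1 has the lowest values, down to 0.42 with Fcgr2b, and the other genes correlate with each other at up to 0.96.

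The genes most like the members in this within-group pattern were Gpr182 (r = 0.97), a receptor gene of sinusoidal endothelium, Flt4 (0.97), which encodes VEGF receptor 3, Ehd3 (0.96) and F8 (0.96), the gene of coagulation factor VIII. They were followed by Aqp1 (0.95), the gene of a water channel, Dnase1l3 (0.95), the gene of a secreted nuclease, Arhgap31 (0.93), Mylip (0.93), Clec14a (0.93) and Eng (0.93), which encodes endoglin. The likeness rested in part on the low libraries CV replicate 1 and CM replicate 1, without which r was 0.93 for Gpr182, 0.89 for Flt4 and Ehd3, 0.82 for F8, 0.78 for Aqp1, 0.76 for Dnase1l3, 0.85 for Arhgap31, 0.89 for Eng, 0.74 for Clec14a and 0.56 for Mylip. Genes alike within groups differed in their values under EE. Gpr182 (0.99 ± 0.19), Flt4 (1.39 ± 0.26) and Arhgap31 (0.93 ± 0.23) rose in EV against CV, whereas Ehd3 (0.00 ± 0.22), Dnase1l3 (0.03 ± 0.27), Eng (0.15 ± 0.21), F8 (0.18 ± 0.35) and Clec14a (0.48 ± 0.36) were not called. Aqp1 (0.73 ± 0.30; edgeR adjusted p = 0.0521) and Mylip (0.69 ± 0.28; edgeR adjusted p = 0.0518) were just outside the threshold.

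**Figure D5:**
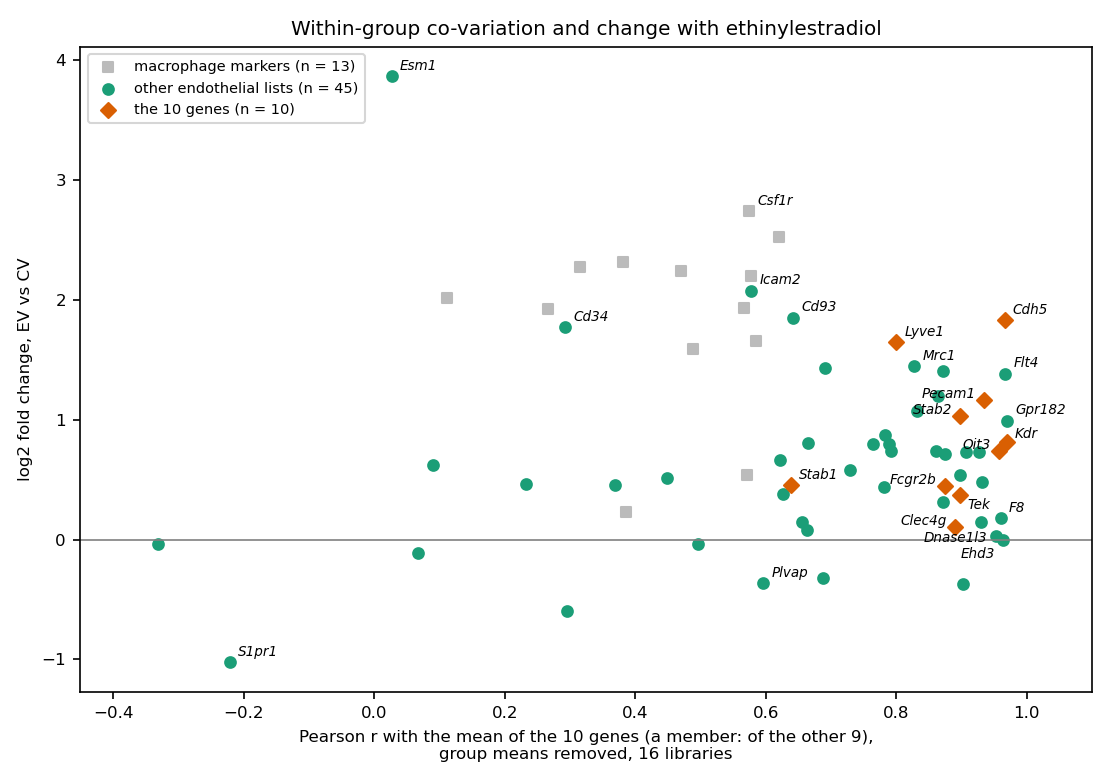
For each gene, Pearson r with the mean of the 10 genes after removal of group means (x) against the log2 fold change in EV against CV (y), for the 10 genes, 45 genes of other endothelial lists and 13 macrophage markers. Genes with r above 0.95 include Ehd3 at 0.00 and Dnase1l3 at 0.03 as well as Cdh5 at 1.83, and Esm1, at 3.87, has an r of 0.0266.

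Genes around the growth factor receptors changed in both directions. For this and the lists that follow, 25.5% of all genes were called higher and 24.9% lower in EV against CV. In EM against CM the shares were 19.4% and 18.6%. With library totals the shares called higher were the larger ones given above. Of 7 other VEGF ligand and receptor genes measured, Flt4 and Flt1 (VEGF receptor 1; 0.75 ± 0.18) rose and Vegfb, a ligand gene, fell (-1.66 ± 0.24, edgeR adjusted p = 4.06e-05) in EV against CV. Vegfa, the ligand of Kdr, differed by -0.36 ± 0.17 (edgeR adjusted p = 0.0966) there, a value that became 0.12 with library totals. In EM against CM, Vegfb (-0.85 ± 0.24) and Vegfa (-0.47 ± 0.17) fell, and neither call held with library totals (-0.47 and -0.10). On that scale 4 of the 7 rose in each comparison, and 1 fell in EV against CV and 0 in EM against CM. That of Vegfa was also lost in 8 of the 16 fits that left out 1 library, namely without CV replicate 2, 3 or 4, CM replicate 1 or 4, or EM replicate 1, 3 or 4. Of 2 measured genes around Tek, Tie1, its co-receptor, rose in EV against CV (0.73 ± 0.28, edgeR adjusted p = 0.0382), a call lost without CV replicate 1 or 2 or any 1 EV library, and Ptprb, the phosphatase that restrains it, was at -0.24 ± 0.24.

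Other genes of sinusoidal endothelium behaved like the members in part. Of 13 measured, 5 rose in EV against CV: Mrc1 (1.45 ± 0.19), the mannose receptor, Clec1b (1.43 ± 0.19), a C-type lectin, Flt4, Gpr182 and Maf (0.62 ± 0.12), a transcription factor. Their r with the members' mean within groups was 0.97 for Gpr182 and Flt4, 0.83 for Mrc1, 0.69 for Clec1b and 0.09 for Maf. Which cells carried the rises of Mrc1, Clec1b and Maf was not tested. The list's median was 0.62, and the remaining 8, among them Dnase1l3 and Gata4 (0.08 ± 0.25), the transcription factor of sinusoidal identity, were not called. In EM against CM, 4 of 13 rose, with a median of 0.54, where 19.4% of all genes were called higher. With library totals 9 and 7 of 13 rose, beside the larger shares of all genes on that scale. Of 5 measured genes for endothelial or other non-parenchymal signals to hepatocytes, Dll4, a Notch ligand, rose (1.20 ± 0.32) and Rspo3, a Wnt enhancer, fell (-0.59 ± 0.21, edgeR adjusted p = 0.0268) in EV against CV. Rspo3 also fell in EM against CM (-0.64 ± 0.21), and with library totals it was called in neither (-0.11 and -0.27). Its call was also lost without any 1 of 4 libraries in EV against CV (CV replicates 1 and 3, EV replicates 2 and 4) and of 3 in EM against CM (CM replicate 2, EM replicates 2 and 3). Bmp2 (0.32 ± 0.27) was not called, and with library totals 3 of the 5 rose in EV against CV and 1 in EM against CM.

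Of 20 general endothelial genes, 12 rose and 1 fell in EV against CV, and 2 rose and 1 fell in EM against CM. With library totals, 18 rose and 1 fell in the first and 8 rose and 0 fell in the second. Icam2, an adhesion molecule, rose in both (2.08 ± 0.36 and 1.71 ± 0.36), as did Cd93 (1.85 ± 0.30 and 0.87 ± 0.29, the second lost without EM replicate 1 or any 1 of CM replicates 1, 3 and 4), while Esam, a junction gene, rose in EV against CV (0.58 ± 0.14) and was at 0.06 ± 0.14 in EM against CM. S1pr1, the sphingosine 1-phosphate receptor, was the gene that fell (-1.03 ± 0.16 and -0.64 ± 0.16); with library totals the second value was -0.26 and was not called.

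Genes typical of continuous capillaries and larger vessels rose in 4 of 7 in EV against CV and in 1 of 7 in EM against CM (5 and 2 with library totals). Among all genes, 25.5% and 19.4% were called higher. Esm1, a secreted proteoglycan of sprouting endothelium, rose by 3.87 ± 0.49 in the first and was at 1.14 ± 0.44 in the second (edgeR adjusted p = 0.051). Cd34, a capillary sialomucin, rose in both (1.77 ± 0.26 and 1.13 ± 0.26). Emcn (1.41 ± 0.39) and Efnb2 (0.81 ± 0.30) rose in EV against CV, the latter not without CV replicate 1, 2 or 4 or EV replicate 1, 2 or 3, whereas Plvap (-0.36 ± 0.18), a component of fenestral diaphragms, and Vwf (0.14 ± 0.36), the von Willebrand factor gene, were not called. Plvap changed sign with library totals, to 0.12.

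Markers of other liver cells moved in the same comparisons. Stab1, Lyve1, Fcgr2b and Mrc1 are also expressed by macrophages. Of 13 macrophage markers, 11 rose in EV against CV and 12 in EM against CM, and their summed level was 405 to 1012 CPM in CV, 414 to 836 in CM, 2394 to 2782 in EV and 1959 to 3255 in EM, with none at 0. Among relatives of the scavenger and Fc receptors, 7 of 10 rose and 1 fell in EV against CV (8 and 0 with library totals), led by Msr1 (2.97 ± 0.23), Fcgr1 (2.90 ± 0.24), Fcgr3 (2.86 ± 0.17) and Fcgr4 (2.50 ± 0.25). Fcgr2b, which shares sequence with Fcgr3, was not called beside that 7.26-fold rise. The part of macrophages in the members' changes was not tested.

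The summed level of 8 hepatocyte markers was 84300 to 111000 CPM in CV, 79700 to 109800 in CM, 32090 to 40130 in EV and 35880 to 53350 in EM, with none at 0. Of them 7 fell and 1 rose in EV against CV, and Apoa1 fell by 2.88 on the log2 scale. With library totals 5 fell and 1 rose. Most of the hepatocyte sum was Alb, with a mean of 63410 CPM in CV and 26230 CPM in EV. Proliferation genes rose in 10 of 10 in both EE comparisons, including Mki67 (4.52 ± 0.43 in EV against CV); these genes are shared by all dividing cells. Of 10 stellate and fibroblast markers, 3 rose and 2 fell in either comparison (with library totals 4 rose and 0 fell in either), with sums of 210 to 397 CPM in CV, 259 to 346 in CM, 221 to 240 in EV and 187 to 285 in EM. Lymphocyte and neutrophil markers rose in 5 of 8 (10.7 to 27.7 CPM in CV, 24.4 to 56.7 in CM, 72.6 to 159 in EV, 63.2 to 158 in EM), cholangiocyte markers in 2 of 4 (40.4 to 57.5 in CV, 54.4 to 77.2 in CM, 131 to 197 in EV, 84.2 to 189 in EM) and smooth muscle markers in 0 of 3 (12.1 to 27.9 in CV, 12.96 to 27.7 in CM, 10.1 to 24.9 in EV, 17.8 to 32.6 in EM) in EV against CV, and no marker of these lists was at 0 in every library. Among the cholangiocyte markers, Sox9 and Spp1 rose in EV against CV, while Krt19 (0.07 ± 0.54) and Epcam (-0.26 ± 0.24) were not called. Most of the cholangiocyte sum was Spp1, with a mean of 43.9 CPM in CV and 157.5 CPM in EV. In EM against CM, Epcam fell (-0.73 ± 0.24). The part of these other cells in the members' changes was not tested.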

How the data were processed

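Liver poly(A) RNA was extracted with TRIzol and made into NEBNext Ultra libraries, per the labels' protocols. Per the submitters' processing notes, STAR, Salmon and the GRCm39 build were used; versions, annotation and strand handling are not stated in the sources used here. The authors deposited 1 table of estimated counts for 13006 genes in 16 libraries, all whole numbers. Among 730 genes at 0 in at least 1 library (82.9% with an exon length), 330 genes under 500 bp had smallest nonzero values with a median of 51 and 49 genes over 4000 bp a median of 1, so these estimated counts, as deposited, are not raw reads. Over 9 length classes the median of smallest value times length lay between 3840 and 9410 while length varied far more, so the values were taken as already divided by length and CPM was not divided again. They were used without rounding, and their depth, 14115384 to 21473227 per library, sets only an approximate precision. No pair of libraries had identical values in more than 3.24% of genes.

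Sample titles gave the group and replicate number, and doses and days from the labels; a further MI763F dose was not analysed here. The labels give no batch. Symbols (12692 identifiers) and the exon lengths used for the length check came from GENCODE M21, which is for an earlier build, so no coordinates of the files' build are given.

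Counts were filtered with filterByExpr (12918 genes), scaled with TMM and tested in edgeR 4.0.16 under R 4.3.3 (robust quasi-likelihood, 1 coefficient per group, 12 residual degrees of freedom, biological coefficient of variation 0.284). Benjamini-Hochberg adjustment ran over all genes, with a threshold of 0.05, for 5 contrasts. Standard errors come from the F statistic of each test, and 95% intervals use the t distribution. For the ratio scale, library factors were set so that the geometric mean of Cdh5 and Pecam1 was equal in all libraries. Correlations used log2 CPM (prior count 2) with group means removed and are descriptions. The members and the gene lists were chosen with earlier results of these data known. Besides the 10 members, genes named are those with the smallest p in EV against CV in each list (up to 4, or 3 for markers of other cells), a set of pathway genes and the 10 most like the members; those printed are a part of these. Angpt1, Angpt2, Wnt2 and Wnt9b were not analysed here.

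Alternatives were RLE factors, library totals, no low count filter, 1 CPM in at least 8 libraries, the replicate number as a block, only the groups compared, DESeq2 1.42.0, each library left out, and other reference genes. Leaving out CV replicate 1 with CM replicate 1, each library left out for the coefficients of variation, library totals for the groups that do not overlap, and 5 sinusoidal genes as reference were chosen after seeing the data. The edgeR steps were tested on simulated data. Figures used matplotlib 3.10.9 in Python 3.11.15.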

Additional observations from a re-analysis of the deposited data

Results flagged for a closer look

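Lyve1 was flagged in each EE group because 1 library lay far below the other 3. In EV replicate 4 it was at 15.3 CPM, while the others were at 22.0 to 23.1 CPM, a gap of 0.859 of the group's range. In EM replicate 4 it was at 9.83 CPM, beside 14.8 to 15.7 CPM, a gap of 0.849 of the range. Both gaps exceed Dixon's 95% critical value for 4 samples, and 40 groups of 4 were examined, of which chance alone flags about 1 in 20. Without EV replicate 4 or EM replicate 4, Lyve1 stayed called in both EE comparisons.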

How the results depend on the processing

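Library totals gave 10 members called higher in EV against CV and 6 in EM against CM, in place of 6 and 3; this scaling shifted the median of all genes by 0.49 and 0.38 (log2). With the other settings the counts were 5 to 7 and 3 to 4. Leaving out 1 library at a time gave 4 to 8 and 3 to 5. The shares of all genes called in these other fits are not given here. In CM against CV, EM against EV and the interaction the count was 0 under every setting run. Same-numbered libraries correlated weakly (from -0.0502 to 0.0957), which cannot settle whether replicate numbers pair the samples. The best match had the same number for replicates 1, 2 and 4 in EM against CM. It did so for replicate 1 in CM against CV, for replicate 4 in EM against EV, and for none in EV against CV. With the replicate number as a block the counts were 7, 3, 0, 0 and 0. The counts of members called lower relative to Cdh5 and Pecam1, 5 and 4, became 3 and 0 with Pecam1 alone, 7 and 6 with Cdh5 alone, and 4 and 4 with the replicate block. Against pan-endothelial genes 2 (1 of them higher) and 1 (higher) were called, and against 5 sinusoidal genes 1 and 1, both higher. The shares of all genes called with these references are not given here. Leaving out 1 library gave 4 to 6 and 2 to 6, with 2 without CM replicate 3, EM replicate 1 or EM replicate 3. Oit3 changed sign against pan-endothelial genes (0.17 in EV against CV) and against the 5 sinusoidal genes (0.24 and 0.00824); the other reference genes make that difference by construction. Of 240 values for single members in EV against CV, 217 kept their side of the threshold, 11 lost the call and 12 gained it; in EM against CM 231 kept it and 9 gained it. With 4 libraries a group, the 95% intervals of members not called still allowed changes of up to 2.62-fold in EV against CV and, for the interaction, a fold as low as 0.366 (both Oit3).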
